A study of Mus musculus with 6 samples.

Results

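Lymphatic endothelial cells that carried at least 1 transcript of Tslp were examined among sorted reporter-positive cells of the mouse gut lamina propria. A cell was taken as lymphatic when at least 3 of the 6 genes Prox1, Lyve1, Flt4, Mmrn1, Reln and Ccl21a had a unique molecular identifier (UMI, the count of 1 captured transcript) and when Ptprc, the pan-leukocyte CD45 gene, and Pdgfra, a fibroblast receptor gene, were both at 0. Of 102534 cells kept, 14919 (14.6%) met this gate and 121 of those had a Tslp UMI. These 121 cells were chosen by their Tslp and lymphatic UMIs, so those values are given as a description and no test of them is used. They were compared with lymphatic cells of the same library that had no Tslp UMI and nearly the same total of UMIs, 1 for each.

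The cells came from Flare-TSLP mice on the C57BL/6 background, in which an internal ribosome entry site and the red fluorescent protein tdTomato follow the Tslp coding sequence. The line was made from 1 embryonic stem cell clone, and the cassette carries its own poly(A) signal. Live tdTomato+ cells were sorted from the lamina propria, labeled with barcoded hashtag antibodies and captured with the 10x Genomics 3′ kit. All samples had the same genotype, none was treated, and they differed by gut region, with 2 libraries of proximal small intestine, 2 of distal small intestine, 1 of large intestine and 1 of cecum. The study describes several biological samples per small intestinal tissue, and pooled experiments with female and male mice aged 8 to 12 weeks. Each library held 3 hashtags that no source used here pairs with single mice, and the labels give neither sex nor age by sample. Each library was therefore 1 sample, and p-values rest on the spread between libraries, which may be technical.

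TSLP is an epithelial and stromal cytokine of the interleukin-7 family that acts on dendritic cells, group 2 innate lymphoid cells and other cells through a receptor made of CRLF2 and the interleukin-7 receptor alpha chain. Lymphatic endothelium lines the lacteals of the villi and the vessels beneath them, takes up dietary fat and fluid, and guides leukocytes toward lymph nodes through chemokines such as CCL21. Prox1 encodes the transcription factor that sets lymphatic identity, Lyve1 a hyaluronan receptor, Flt4 the receptor VEGFR3, and Mmrn1 and Reln secreted glycoproteins.

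The libraries held 109675337 to 206827504 gene UMIs. Lymphatic cells were unevenly spread, at 13.9 and 29.7% of kept cells in the proximal libraries, 3.51 and 29.4% in the distal libraries, 2.14% in the large intestine and 1.58% in the cecum. Any pair of libraries shared 38 to 118 cell barcodes, at most 0.609% of the smaller library. Scrublet marked 4.90 to 11.3% of cells per library as doublets, and these were kept unless stated. The distal replicate 1 library stood apart for this comparison, since it gave only 6 cells with Tslp and 3 of them carried several hashtags.

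The 121 cells held 143 Tslp UMIs. A single Tslp UMI was found in 102 cells, 2 in 18 cells and 5 in 1 cell, so nearly all lay just inside the threshold. All 6 gate genes were present in 116 of them, 5 in 3 cells and 4 in 2 cells, and none had exactly 3. Just outside the gate, no Tslp-positive cell without Ptprc and Pdgfra carried 2 of the 6 genes, 10 carried 1 and 61 carried none. Of all 1418 kept cells with a Tslp UMI, the 121 made up 8.53%. A further 1117 were Pdgfra-positive and below the lymphatic gate, and 108 carried the lymphatic genes together with Pdgfra or Ptprc, 105 of them with Pdgfra.

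Genes outside the gate were compared only with matched cells, which passed the same gate, so they do not test the lymphatic label itself. Summed per library, Pecam1, the adhesion molecule CD31, was at 447 ± 140 CPM (the UMIs of a gene scaled to all UMIs of the same cells; mean ± SD, n = 5 libraries with such cells) in cells with Tslp and 565 ± 94.0 in matched cells. Pdpn, podoplanin, was at 245 ± 84.2 and 222 ± 48.8 CPM, and Cdh5, VE-cadherin, at 452 ± 119 and 420 ± 68.7 CPM. Nr2f2 and Nrp2, a venous and lymphatic transcription factor and a VEGF-C co-receptor, were at 1031 ± 131 and 1370 ± 507 CPM in cells with Tslp and at 1061 ± 205 and 1424 ± 353 CPM in matched cells. None of these 5 genes passed the test across all genes. The gate genes, which the rule used, are given as a description, with Prox1 at 950 ± 318 and 930 ± 283 CPM and Lyve1 at 2186 ± 355 and 2154 ± 295 CPM in cells with Tslp and in matched cells.

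Tslp UMIs were found in the lymphatic and fibroblast gates and in none of the other gates examined. In the lymphatic gate 0.811% of cells had one (exact 95% binomial interval 0.673 to 0.968%, median depth 6073 UMIs), against 1.56% of 69626 Pdgfra-positive fibroblasts (median 8479 UMIs). The fibroblast share was 1.54 and 0.746% in proximal and 2.07 and 1.03% in distal replicates 1 and 2. It was 1.85% in the large intestine and 1.66% in the cecum. The lymphatic share was lower in each library, but close in proximal and distal replicates 2, at 0.696 and 0.853%. Blood endothelial cells, the other endothelium of the same sort, of which 2 had a tdTomato UMI, had a Tslp UMI in 0 of 1137 cells at a median of 5844 UMIs, which allows a share of up to 0.264% by a floor of 3 counts and 0.324% by the exact interval. The same count was 0 of 675 B cells, 0 of 321 T cells and 0 of 52 epithelial cells, with floors of 0.444, 0.935 and 5.77% and exact upper limits of 0.545, 1.14 and 6.85%. Over all UMIs of a gate, Tslp stood at 1.38 CPM in lymphatic cells (exact Poisson interval 1.16 to 1.62) and 1.82 CPM in fibroblasts. The upper bound in blood endothelial cells was 0.422 CPM. The pooled order did not hold in every library. In proximal and distal replicates 2 lymphatic cells were at 1.17 and 1.55 CPM and fibroblasts at 0.725 and 1.12 CPM, while in the other libraries lymphatic cells were lower. These intervals and limits cover counting error only.

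**Figure D1:**
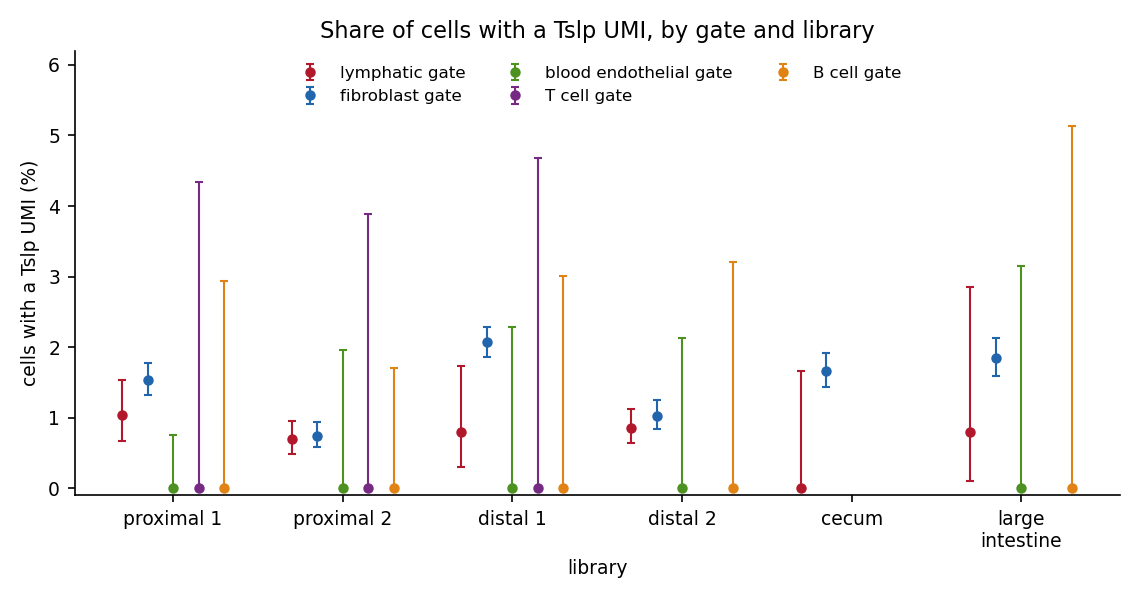
Share of cells with at least 1 Tslp UMI, in percent, by library and cell gate, for gates with at least 50 cells. Points are shares and bars exact 95% binomial intervals, with the lymphatic points between 0 and 1.04% and every blood endothelial, T and B cell point at 0.

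Free RNA of fibroblasts was measured beside these values. UMIs of 5 fibroblast genes, the collagens Col1a1, Col1a2 and Col3a1 and the proteoglycans Dcn and Lum, made up 921 CPM in lymphatic cells, 1259 CPM in blood endothelial cells, 25777 CPM in fibroblasts and 20432 CPM in barcodes with at most 100 UMIs. With the UMIs of these 5 genes taken as the total in place of all UMIs, Tslp stood at 70.5 CPM in fibroblasts (exact Poisson interval 66.5 to 74.6) and at 73.2 (54.1 to 96.7) in the low barcodes. In lymphatic cells it stood at 1497 (1262 to 1764). By library the lymphatic ratio was 1675 and 1732 in proximal replicates 1 and 2, 1128 and 1410 in distal replicates 1 and 2 and 771 in the large intestine, against 68.9 and 28.6, 92.8 and 49.3, and 95.5 in fibroblasts of the same libraries. The lymphatic and fibroblast intervals did not overlap in the 4 small intestinal libraries, while in the large intestine the lymphatic interval, which rested on 2 UMIs, reached down to 93.3. The lymphatic gate requires Pdgfra at 0 and the fibroblast gate requires it, so the gates themselves set part of the gap in fibroblast gene UMIs, and the ratio is a description. Blood endothelial cells, also gated at 0 Pdgfra and 0 Ptprc, had a ratio of 0 with an upper bound of 335. In the cecum no lymphatic Tslp UMI was found. At least 1 UMI of the 5 fibroblast genes was present in nearly all lymphatic cells, and among the 743 cells without one, 3 had Tslp (0.404%).

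**Figure D2:**
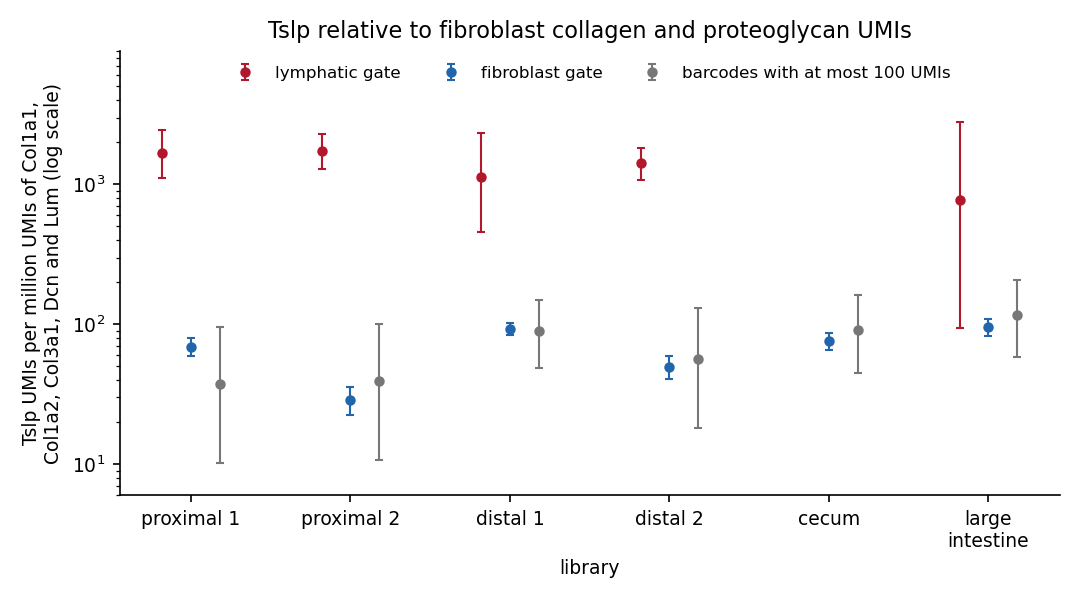
Tslp CPM with the UMIs of Col1a1, Col1a2, Col3a1, Dcn and Lum as the total (log axis), by library, in the lymphatic gate, the fibroblast gate and barcodes with at most 100 UMIs. Bars are exact 95% Poisson intervals, and lymphatic cells of the cecum, with no Tslp UMI, are not drawn. In the 4 small intestinal libraries the lymphatic points lie between 1128 and 1732, above both other sources.

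By library, Tslp was carried by 25 of 2404 lymphatic cells (1.04%, 0.674 to 1.53%) and 37 of 5319 cells (0.696%, 0.490 to 0.958%) in proximal replicates 1 and 2. In distal replicates 1 and 2 it was carried by 6 of 748 cells (0.802%, 0.295 to 1.74%) and 51 of 5976 cells (0.853%, 0.636 to 1.12%). In the large intestine it was 2 of 251 cells (0.797%, 0.0966 to 2.85%), and in the cecum 0 of 221 cells, which allows up to 1.36% by the floor and 1.66% by the exact interval. All intervals overlapped, and the distal libraries lay within the range of the proximal ones. The distal and proximal means were 0.828 and 0.868%, and those of large bowel and small intestine 0.398 and 0.848%. The rule used this share, so no test of it between regions is used.

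The share was higher in deeper cells. With the cells of each library split into 4 equal parts by total UMIs, it was 0.322, 0.375, 0.644 and 1.90% from the shallowest to the deepest. After every lymphatic cell had been thinned to 2500 UMIs, 45 of the 14919 cells (0.302%) still had a Tslp UMI. Cells without a Tslp UMI are therefore not shown to lack the transcript. Cells with Tslp had a median of 8067 UMIs and their matches 8078, against 6058.5 in all lymphatic cells without Tslp, and no matched pair differed by more than 2.52% of total UMIs. Among the 12 hashtag groups of the small intestinal libraries the share ranged from 0.521 to 1.56%, so cells with Tslp came from every hashtag group there.

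The reporter transcript itself, which the rule did not use, was found in more of the cells with Tslp. A tdTomato UMI was present in 13 of the 121 cells (10.7%), in 3 of the 121 matched cells (2.48%) and in 1.15% of all lymphatic cells without Tslp. Summed per library, tdTomato was at 24.9 and 40.7 CPM in proximal replicates 1 and 2, 342 and 37.2 CPM in distal replicates 1 and 2 and 31.5 CPM in the large intestine, against 9.95, 4.78, 0, 0 and 0 CPM in the matched cells. Every library was thus higher in cells with Tslp, although the large intestinal value was 1 UMI in 2 cells. With 10 matched cells the groups overlapped, since the matched large intestinal cells stood at 25.2 CPM. Low barcodes held tdTomato at 4.45 CPM and the whole lymphatic gate at 2.42 CPM. The means were 95.2 ± 138 and 2.95 ± 4.43 CPM (SD, n = 5), and the exact sign-flip test over libraries gave p = 0.0625, the smallest that 5 libraries allow, so that this design could not reach 0.05.

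The 13 cells differed widely in tdTomato. One distal replicate 1 cell with 16 UMIs, one distal replicate 2 cell with 13 and one proximal replicate 2 cell with 11 held 71.4% of the 56 UMIs, and 7 cells had a single UMI. The distal replicate 1 cell carried 2 hashtags. Without that library the mean difference was 29.9 CPM. With cells of several hashtags removed, tdTomato was higher in 4 of 5 libraries (exact sign-flip p = 0.125). Whether a Tslp UMI came from the reporter allele or from an unmodified allele cannot be told apart in these counts.

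Across all genes, cells with Tslp differed from their matched cells in few. Of 5603 genes tested on UMIs summed per library with edgeR's quasi-likelihood test and library as a block, 14 (0.25%) passed an adjusted p of 0.05. Of these, 4 (0.0714%) were higher with Tslp, namely the chemokine genes Ccl2 and Ccl7, the matrix gene Tnc and the adhesion gene Selp, and 10 (0.178%) were lower. The median log2 difference over all genes tested was 0.0069. Tslp and the gate genes are left out of these counts. On simulated counts 11.2% of the calls of this fit were false, above the nominal threshold.

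Ccl2 encodes a chemokine that draws monocytes through the receptor CCR2, and Ccl7 encodes a related ligand of the same receptor. Both lie on the plus strand of chromosome 11 (mm39, chr11:81926397-81928279 and chr11:81936532-81938351, gene bodies). In cells with Tslp, Ccl2 was at 134 and 416 CPM in the proximal and 1410 and 543 CPM in the distal libraries, against 14.9, 179, 21.4 and 52.5 CPM in matched cells. It was higher with Tslp in all 4 small intestinal libraries, and no Ccl2 UMI was present in either class of the large intestine, where only 2 cells had Tslp. The fitted log2 difference was 2.55 ± 0.375 (SE; edgeR adjusted p = 0.00202).

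Ccl7 was at 4.97, 115, 726 and 140 CPM in the same 4 libraries with Tslp and at 0, 28.7, 0 and 8.76 CPM without. The order was the same in each of the 4, although proximal replicate 1 rested on 1 UMI. The log2 difference was 3.17 ± 0.452 (edgeR adjusted p = 0.00165). Its matched cells held 0, 12, 0, 4 and 0 UMIs, so it passed the count filter through the cells with Tslp, and its call is not used as support. The fit without a filter also called it. DESeq2 and limma-voom also called both genes higher, after the same count filter.

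The 2 chemokines came from a minority of the cells. A Ccl2 UMI was present in 26 of 121 cells with Tslp (21.5%), 14 of 121 matched cells (11.6%) and 9.22% of all lymphatic cells without Tslp, and the 3 highest cells held 54.8% of the 515 UMIs. A Ccl7 UMI was present in 10 cells with Tslp, 2 matched cells and 1.03% of all lymphatic cells without Tslp, and 3 cells held 82.99% of the 147 UMIs with Tslp. Of the 10 cells with Ccl7, 8 also had Ccl2. Of the 13 cells with tdTomato, 9 had Ccl2 or Ccl7, against 28 of all 121 cells with Tslp. Among cells with tdTomato but no Tslp UMI, 28 of 170 had either chemokine, as did 0 of the 3 in the matched set. The share of cells with a Ccl2 UMI was higher with Tslp in 2 of 5 libraries and equal in the rest (exact sign-flip p = 0.5), and for Ccl7 it was higher in 4 (p = 0.125). With 5 libraries the smallest p of this test is 0.0625. With each cell weighted equally, as the mean over cells of each cell's depth-scaled log2 level, Ccl2 was the only gene called by limma (difference 0.44, adjusted p = 0.000956). The Ccl2 call ended without cells of several hashtags (1.75, edgeR adjusted p = 0.240) and without distal replicate 2 (2.33, adjusted p = 0.523), as did the Ccl7 call without distal replicate 2 (2.88, adjusted p = 0.515). Without cells of several hashtags no gene was called higher with Tslp, and Ccl7 and Selp did not reach the count filter.

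Both chemokines were also present in free RNA. In barcodes with at most 100 UMIs Ccl2 stood at 73.1 CPM and Ccl7 at 32.4 CPM over all libraries. They stood at 55.4 and 23.4 CPM in the fibroblast gate and at 66.5 and 6.41 CPM in the whole lymphatic gate. In the small intestinal libraries alone the low barcodes were at 54.2 and 8.67 CPM, the fibroblast gate at 40.3 and 6.33 CPM and the lymphatic gate at 66.1 and 5.79 CPM. The Ccl2 levels of the 4 small intestinal libraries with Tslp were all above the low-barcode level, and those of Ccl7 were above it in 3 of the 4. The part of free RNA in these differences was not tested.

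Tnc encodes tenascin C, a matrix glycoprotein of remodeling tissue, and lies on the minus strand of chromosome 4 (mm39, chr4:63878014-63965443). It was at 169, 725, 1004, 353 and 881 CPM with Tslp, in the order of the proximal, distal and large intestinal libraries, and at 179, 105, 64.1, 164 and 318 CPM without. It was higher in 4 of 5 libraries and nearly level in proximal replicate 1 (log2 difference 1.63 ± 0.326, edgeR adjusted p = 0.0286). The Tnc call ended with DESeq2 (1.73, adjusted p = 0.354) and without cells of several hashtags (1.44, edgeR adjusted p = 0.101), proximal replicate 2, distal replicate 2 or the large intestine (adjusted p = 1, 0.547 and 0.0885). A Tnc UMI was present in 66 and 52 of the 121 cells of each class, and 3 cells held 33.0% of the UMIs with Tslp. Tnc was also at 594 CPM in fibroblasts and 516 CPM in low barcodes, above the 154 CPM of the lymphatic gate. By library, in the same order, low barcodes were at 272, 309, 499, 654 and 931 CPM. Cells with Tslp were thus below them in proximal replicate 1, distal replicate 2 and the large intestine, and above them in the others. The part of free RNA in the Tnc difference was not tested.

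Selp encodes P-selectin, which captures leukocytes rolling along endothelium (mm39, chr1:163942833-163977595, plus strand). Its levels with Tslp were 358, 7.18, 192, 41.6 and 0 CPM, against 34.8, 7.17, 21.4, 8.76 and 0 CPM. The log2 difference of 2.64 ± 0.440 (edgeR adjusted p = 0.00534) rested on few cells, since 9 cells with Tslp and 7 matched cells had a UMI and 3 cells held 94.2% of the 103 UMIs. The matched cells held 15 Selp UMIs in all, so Selp passed the count filter through the cells with Tslp, and its call is not used as support. The Selp call ended with DESeq2 (2.25, adjusted p = 0.477), with 10 matched cells (1.66, edgeR adjusted p = 0.935) and without distal replicate 2 (2.70, adjusted p = 0.515), and against all cells without Tslp the difference was 1.29.

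**Figure D3:**
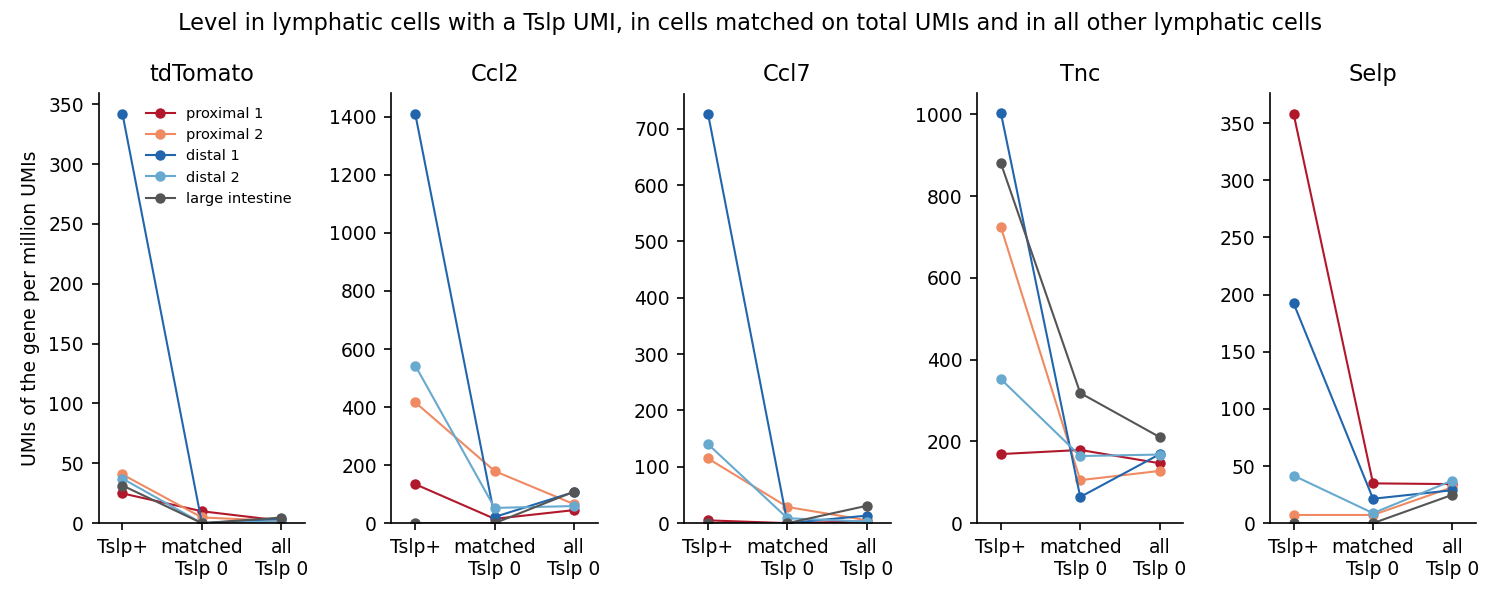
CPM of tdTomato, Ccl2, Ccl7, Tnc and Selp, from UMIs summed per library, in lymphatic cells with Tslp (Tslp+), in cells matched on total UMIs and in all lymphatic cells without Tslp. Each line is 1 library. Every tdTomato line falls from left to middle, and distal replicate 1, with 6 cells, has the highest Tslp+ point for tdTomato, Ccl2, Ccl7 and Tnc.

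The 10 genes lower with Tslp included 3 of the list of pericyte and smooth muscle markers and 2 of the list of B and plasma cell markers. Tagln, Myh11 and Acta2, contractile genes of smooth muscle and pericytes, differed by −2.78, −3.35 and −2.48 on the log2 scale, and Myl9, a myosin light chain gene outside the list, by −3.44. Jchain and Igha, which encode the joining chain and the heavy chain of immunoglobulin A, differed by −4.24 and −3.85. The light chain gene Iglv1 had no UMI in cells with Tslp and 88 in 3 matched cells. The others were Cxcl9, a chemokine gene induced by interferon gamma (−3.13), Epas1, which encodes HIF-2 alpha (−1.45), and Atosa (−2.28). Of the 10, all but Jchain and Igha passed the count filter through the matched cells. The calls that did so are not used as support.

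For Jchain, Tagln and Cxcl9 the UMIs sat mostly in a few matched cells. In the 121 matched cells, the 3 highest cells for each gene held 96.9% of 2745 Jchain UMIs, 92.0% of 176 Tagln UMIs and 98.5% of 333 Cxcl9 UMIs. Cells with Jchain were as common with Tslp (54) as without (58), and cells with Cxcl9 numbered 8 in each class. The marker list of B and plasma cells summed to 34384 and 15735 CPM in the matched cells of proximal and distal replicates 2, against 670 and 366 CPM with Tslp, and to between 31.8 and 661 CPM in the other matched sets. The list of pericytes and smooth muscle ranged from 95.5 to 1202 CPM in matched cells and from 170 to 445 CPM with Tslp. The fibroblast list averaged 7028 CPM with Tslp and 4382 CPM in matched cells and was higher with Tslp in 3 of 5 libraries, at 10446 against 1623 CPM in distal replicate 1. With 5 libraries no exact sign-flip test of such a measure could pass 0.05, so none is used here. The part of these cell types' RNA in the differences was not tested.

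To see which genes differed without such cells, lymphatic cells were grouped by Leiden clustering without Tslp, tdTomato or the gate genes. Of 12 groups, 6 had at least 2 markers of another cell type among their 10 leading genes, and they held 724 cells, 6 of the cells with Tslp and 13 of the matched cells. This removal, and the use of 10 matched cells for each cell with Tslp, were chosen after the data had been seen. With 10 matched cells alone 23 of 8010 genes (0.287%) were called, 5 higher and 18 lower. With both changes the comparison called 28 of 7656 genes (0.366%), 26 higher with Tslp and 2 lower. Tagln, Myh11, Acta2, Myl9 and Iglv1 did not reach the count filter. Jchain, Igha, Cxcl9, Epas1 and Atosa were tested and not called, with log2 differences from −0.53 to 0.07. The leading genes of removed group 10 included Myh11, Tagln and Acta2, and those of removed group 11 Jchain, Igha and Iglv1. For these genes the removal was therefore no independent check.

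In these cells the 26 higher genes included Ccl2 (log2 difference 2.72 ± 0.168) and Ccl7 (4.88 ± 0.318). Tnc (1.59 ± 0.168), Selp (2.14 ± 0.283) and tdTomato (4.49 ± 0.538) were also among them. The 115 cells with Tslp were all part of the first comparison, so this is no independent repeat. Ccl2, Ccl7 and Tnc were higher in 4 of 5 libraries. In the large intestine, with 1 cell with Tslp, they were at 0 against 150, 6.81 and 436 CPM. Tnc had been higher there in the first comparison, at 881 against 318 CPM. Selp was higher in 3 of 5, and lower in proximal replicate 2 (7.84 against 20.1 CPM) and the large intestine (0 against 6.81). tdTomato was near or at 0 in most libraries without Tslp. It passed the count filter through the cells with Tslp, as did Ccl7, Selp, Pdgfa and Cdh13. These calls are therefore not used as support. Pgf, placental growth factor, rose by 1.09 ± 0.199, Pdgfa, a platelet-derived growth factor chain, by 1.59 ± 0.311, and Adm, adrenomedullin, by 1.12 ± 0.222. Pgf and Adm are in the list of lymphangiogenic signals, where 2 of 11 genes tested were higher, beside 26 of 7656 over all genes. None of 3 genes tested from the list of growth and niche factors was called. Pgf and Adm were higher in all 4 small intestinal libraries, Pgf at 79.9, 183, 529 and 116 CPM against 77.3, 70.7, 76.8 and 64.0 CPM. With the groups removed and 1 matched cell each, Adm was at 0.75 (edgeR adjusted p = 0.714), Pgf at 1.02 and Pdgfa at 2.34, and of these 3 only Adm was not called. Pdgfa, at 26.4 CPM or less in those matched cells, again passed the filter through the cells with Tslp. Single calls were also made for Rhoc, a small GTPase gene (0.78 ± 0.165), Tpm1, a tropomyosin gene (0.98 ± 0.209), and Vasp, which encodes an actin regulator (1.05 ± 0.228). Tpm1 was higher in 5 of 5 libraries. The adhesion genes Alcam and Cdh13 were higher by 1.15 ± 0.236 and 1.49 ± 0.295, and the interferon-inducible chemokine gene Cxcl10 by 1.28 ± 0.284, in 3 of 5 libraries. With 1 matched cell each, Tpm1 (1.01, edgeR adjusted p = 0.0874) and Cxcl10 (1.36, adjusted p = 0.123) were not called.

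Top2a, the topoisomerase of dividing cells, was higher by 1.44 ± 0.273 in this comparison, but in 2 of 5 libraries and from 5 cells, 3 of which held 97.8% of its UMIs. The 2 genes that fell were Rnf220, a ubiquitin ligase gene, by 1.05 ± 0.188 on the log2 scale, and Dnaja4, a co-chaperone gene, by 0.78 ± 0.202, both lower in 5 of 5 libraries. Rnf220 stood at 133, 149, 132, 204 and 67.6 CPM with Tslp and at 279, 363, 233, 367 and 102 CPM without. When each cell was weighted equally, limma called 16 genes in the same cells, 8 in each direction, among them Ccl2 (0.47), Ccl7 (0.23), Tnc (0.43), Alcam (0.28), Rhoc (0.41), Vasp (0.28) and Rnf220 (−0.51). It did not call Pgf (0.23), Adm (0.23), Pdgfa (0.19), Cdh13 (0.14), Tpm1 (0.20), Cxcl10 (0.00037), Selp (0.08) or tdTomato (0.19). Dnaja4 and Top2a were not called by it either. The genes other than those named through the first comparison were named after their values had been seen.

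For most pathways examined no gene passed the test. Among 22 gene lists with a tested gene, 17 had no gene called by edgeR, DESeq2 or limma-voom in the matched comparison, with 9 of the 162 genes tested in them at an unadjusted p under 0.05, beside 220 of 5603 over all genes. For the TSLP receptor and its relatives 7 genes were tested, with Crlf2 at −0.35 ± 0.497. For alarmins and other cytokines 7 were tested: Il33, an alarmin of barrier tissue, was at 339 ± 227 and 503 ± 363 CPM in cells with and without Tslp, and Il7, the growth factor of lymphoid cells, at 131 ± 62.1 and 116 ± 55.3 CPM. An Il33 UMI was present in 100 and 103 of the 121 cells. Among receptors for gut hormones and peptides 5 genes were tested, and Glp2r, the receptor of glucagon-like peptide 2, had a UMI in 36 cells of each class (29.8%).

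The nuclear factor kappa B list, which includes Relb (0.54 ± 0.274) and Nfkb1 (0.25 ± 0.213), had 14 genes tested, a median difference of 0.21 and no call. Immediate early and heat shock genes had 21 tested and a median of −0.03, with Atf3 at 0.49 ± 0.256. Interferon response genes had 14 tested, a median of −0.09, and Isg15 at −0.65 ± 0.271. In lymphangiogenic signaling, with 12 tested, Pgf (1.32 ± 0.299, edgeR adjusted p = 0.104) and Adm (1.01 ± 0.375) had an unadjusted p under 0.05. Proliferation genes had 7 tested, none called and a median of 1.37. This was the furthest from 0 among lists other than the markers of smooth muscle and plasma cells. Few cells carried such genes, with Top2a in 5 cells with Tslp and 6 matched cells and Mki67 in 3 of each. The summed level of the list was higher with Tslp in 3 of 5 libraries. Against the 4 higher (0.0714%) and 10 lower (0.178%) of all 5603 genes, chemokines had 2 of 10 genes higher and 1 lower, adhesion molecules 1 of 8 higher, and blood endothelial markers 1 of 9 higher, which was Selp again. Pericyte and smooth muscle markers had 3 of 6 lower and B and plasma cell markers 2 of 3. The 3 smooth muscle calls and that of Cxcl9 passed the count filter through the matched cells. Those of Ccl7 and Selp passed it through the cells with Tslp, so none of these calls is used as support. Finally, 18 other lymphatic genes, 13 capillary and junction genes and 11 collecting vessel and valve genes were tested with none called.

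Among the Leiden groups, cells with Tslp were found in 8 of 12. They made up 0.738, 0.715 and 0.913% of the 3 largest groups, and 0.300% of group 4, led by Nrxn3, Dock3 and Igfbp5. Group 4 held 4 cells with Tslp, 3 of 502 cells in proximal replicate 2 (0.598%) and 1 of 461 in distal replicate 2 (0.217%). Group 5 held 13 of them among 557 cells (2.33%, 1.25 to 3.96%). It was led by Cxcl10, Cxcl9, Ccl2, Ccl7 and the interferon-induced genes Ifit3, Ifit1 and Isg15. Its Tslp level was 5.01 CPM, against 1.38 CPM over all lymphatic cells, and 22 of its cells had a tdTomato UMI. The share in group 5 was 2.38 and 3.64% in the proximal and 2.38 and 1.79% in the distal libraries, above the share of the whole gate in each of the 4, with 0 of 12 cells in the cecum and 0 of 30 in the large intestine. These shares rested on 2 of 84 and 6 of 165 cells in the proximal and 1 of 42 and 4 of 224 in the distal libraries. Group 9, led by the cell cycle genes Top2a, Stmn1 and Cenpf, held 3 among 77 cells (3.90%, 0.811 to 10.97%). Its median depth of 11900 UMIs was above the 6377 of group 5 and the 6073 of the whole gate. Since the groups were formed from these cells, no test was made, and the leading genes of group 5 and the Ccl2 and Ccl7 differences above are not independent.

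**Figure D4:**
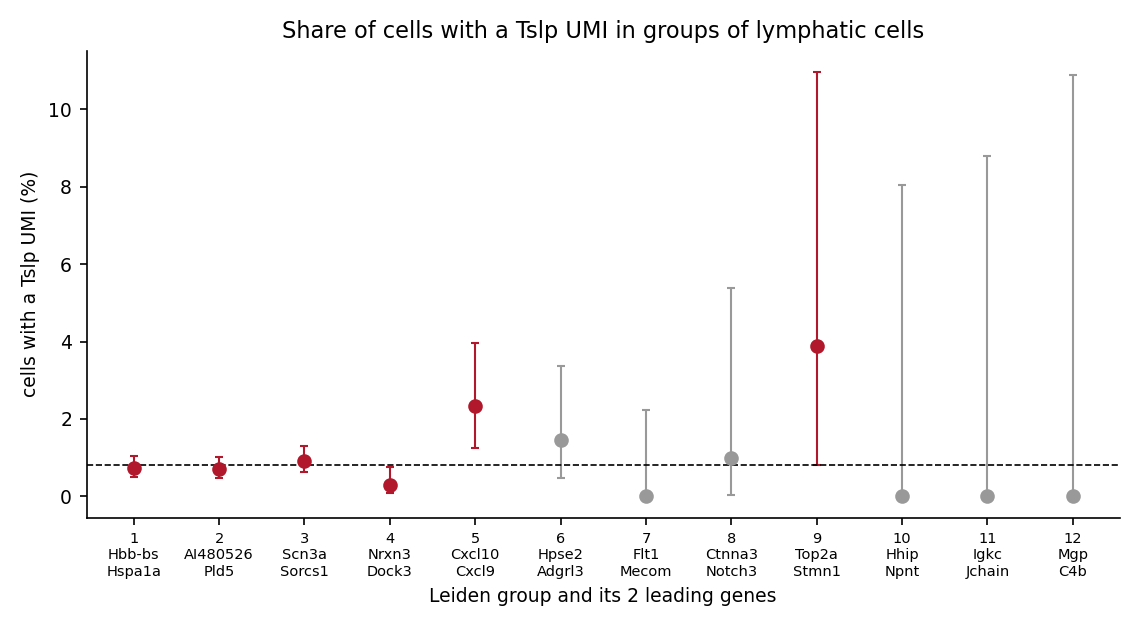
Percent of cells with a Tslp UMI in 12 Leiden groups of lymphatic cells, each labeled with its 2 leading genes. Bars are exact 95% binomial intervals, the dashed line is the share in all lymphatic cells (0.811%), and gray marks the 6 groups led by genes of other cell types. The intervals pool cells over libraries, cover counting error only and are no test. The share was 2.33% in group 5, led by Cxcl10 and Cxcl9, and 0.300% in group 4, led by Nrxn3 and Dock3.

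The 170 lymphatic cells with tdTomato but no Tslp UMI give a separate look at the reporter, chosen after the data had been seen. With the 6 groups removed, 167 of these cells were compared with 10 matched cells each that had neither transcript. Of 8227 genes, 12 (0.146%) were called, 10 higher and 2 lower. Matching on depth was close in the small intestine but not in the large intestine, where the medians were 15130 and 11096.5 UMIs, or in the cecum, at 7616 and 7071 UMIs. Ccl2 was higher by 1.02 ± 0.195 (edgeR adjusted p = 0.00116), at 299, 187, 538 and 47.9 CPM in the proximal and distal libraries against 73.1, 88.8, 90.6 and 72.1 CPM. In the cecum, with 2 such cells, it was at 0 against 6.55 CPM and in the large intestine, with 7, at 123 against 219 CPM, so that it was higher in 3 of 6 libraries. Leaving out proximal replicate 1 or distal replicate 1 lowered the difference to 0.75 and 0.68 and ended the call (adjusted p = 0.0839 and 0.0549), and without the cecum the difference was 1.01 and not called (adjusted p = 0.499). Cxcl9 was higher by 1.75 ± 0.194 in 5 of 6 libraries, and Cd34, a sialomucin of endothelium and stroma, by 1.19 ± 0.281 in 6 of 6. Ccl7, Tnc and Selp were at 1.20 ± 0.473, 0.58 ± 0.155 and 0.58 ± 0.346 and were not called (adjusted p = 0.627, 0.115 and 0.919). Both comparisons draw their matched cells from the same lymphatic cells.

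Between regions, cells with Tslp did not differ at the threshold. Of 5717 genes tested between the 2 distal and 2 proximal libraries, 0 (0%) were called by edgeR, and 120 had an unadjusted p under 0.05. DESeq2 and limma-voom also called 0, with 35 and 260 at an unadjusted p under 0.05. In the matched cells without Tslp, 0 of 5720 genes were called and 185 had an unadjusted p under 0.05. The distal side rested on 6 and 51 cells, and the count was 7 to 204 with 1 library left out, so the 0 depends on which libraries enter. No library of the large bowel held 10 cells with Tslp, so small and large bowel were not compared among them. When the difference between cells with and without Tslp was itself compared between small and large bowel, the large bowel side was 1 library with 2 cells of each class, so that side had no replicate and the spread was that of the small intestinal libraries. Of 7101 genes, edgeR gave 1 past the threshold, S100a6, which encodes a calcium-binding protein, at −2.94 ± 0.468, and limma-voom none. With 1 library on that side this is a value and no regional difference is read from it.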

How the data were processed

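Each of the 6 samples was 1 droplet library of tdTomato+ cells. The authors ran Cell Ranger (8.1.0 in the submitters' processing notes) on a custom mm39 reference that includes tdTomato. The deposited values are raw counts of every barcode, whole numbers of UMIs for 33697 genes, tdTomato among them, and 6 hashtags, and neither empty droplets nor doublets had been taken out. The study's later steps with DoubletFinder and SoupX were not used here.

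Barcodes with 1000 to 7500 genes, 2500 to 40000 gene UMIs and under 10% mitochondrial UMIs were kept. Cells with Tslp were matched 1 to 1, without replacement, to the nearest total within library. UMIs were summed per library and class, scaled by TMM, filtered by filterByExpr (minimum count 10) and tested with edgeR's quasi-likelihood test and Benjamini-Hochberg adjustment at 0.05. A standard error is the size of the edgeR difference divided by the square root of F. edgeR shares information on spread across genes, so this error can be smaller than the disagreement of a gene between libraries. The cecum, without cells with Tslp, did not enter the paired fits. Single values were tested by exact sign flips over libraries, two-sided. Leiden groups came from 2000 variable genes, 20 principal components, 15 neighbours and a resolution of 0.6.

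The cells, gene lists and comparisons were chosen with earlier results of these data known. The rule for named genes took Tslp, tdTomato, the gate genes, up to 12 called genes per direction with an average level at or above the median and the same direction in every library with 20 such cells, and up to 4 genes per list by smallest p. It named Ccl2, Tagln, Acta2 and Cxcl9 directly and Ccl7, Selp, Myh11, Jchain and Igha through the lists, while Tnc, Iglv1, Myl9, Atosa and Epas1 complete the calls and were named after their values were seen. Il33, Glp2r and the lymphatic genes used to check the label were named for their known roles. Gene places are from GENCODE for the same build, in which all 4 looked up were matched. Reads of the immunoglobulin genes may be split among near-identical copies. The matched fits with 1 and with 10 matched cells were tested on simulated counts, where the share of false calls was above the nominal threshold; the other fits use the same function and were not simulated. Fits were run with edgeR 4.0.16, DESeq2 1.42.0 and limma 3.58.1 under R 4.3.3, and clustering with scanpy 1.11.5 under Python 3.11.15.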

Additional observations from a re-analysis of the deposited data

Results flagged for a closer look

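In 5 of 32 sets of 5 libraries examined, 1 library lay far from the others, where chance alone gives about 1 in 20. In cells with Tslp, Ccl7 was highest at 726 CPM and tdTomato at 342 CPM, both in distal replicate 1, which gave 6 cells with Tslp. Without that library the tdTomato difference was 29.9 CPM. Also in cells with Tslp, Myh11 was highest at 26.3 CPM in distal replicate 2, the only library with a UMI of it, and Acta2 at 252 CPM in the large intestine, where it rested on 8 UMIs. In matched cells, Cxcl9 was highest at 694 CPM in proximal replicate 2, where 1 cell held 289 of 290 UMIs. For S100a6, the fitted difference between cells with and without Tslp, large minus small intestine, was −2.94 on the log2 scale and passed the threshold of edgeR but not of limma-voom. The large intestinal side was 1 library with 2 cells of each class and no replicate, so the value has no replicate check.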

How the results depend on the processing

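The count of 14 genes that differed between cells with and without Tslp became 3 with DESeq2, 50 without a filter on low counts, 0 without the library block, 88 against all cells without Tslp, 5 after thinning to 2500 UMIs, 7 with matching within hashtag, 4 without cells of several hashtags (all lower with Tslp), 8 with at least 2 Tslp UMIs, 0 without cells holding fibroblast gene UMIs, 23 with 10 matched cells, 22 without the groups led by other cell types, 28 with both and 1 from the mean log2 level over cells. The other alternatives gave 10 to 21. Without cells holding fibroblast gene UMIs only 136 genes were tested, and 0 of the 14 were among them. At 2 Tslp UMIs 1223 genes were tested, with 4 of the 14 among them. After thinning it was 2568 genes with 4 of the 14, and without the library block 4113 with 5. Leaving out 1 library gave 0 to 18 genes, with 3 without proximal replicate 2 and 0 without distal replicate 2. With the groups removed and 10 matched cells it gave 14 to 22. Ccl2 kept its call in 20 of 24 alternatives, Ccl7 in 18 of 20, Tnc in 15 of 24 and Selp in 13 of 19. Alternatives in which a gene missed the count filter are not counted, and none of these 4 changed sign. Of the lower genes, Epas1 kept its call in 6 of 20, Acta2 in 10 of 19, Cxcl9 in 11 of 19 and Jchain and Igha in 14 of 24. Tagln kept it in 12 of 17, Iglv1 in 10 of 13, Myh11 in 11 of 16, Myl9 in 10 of 15 and Atosa in 10 of 16. Without proximal replicate 2 there were 0 lower calls, and with DESeq2 1. Ccl2 lost its call without the library block, without distal replicate 2, without cells of several hashtags and with matching within hashtag (adjusted p = 0.752, 0.523, 0.240 and 0.0585). On the log2 scale Jchain turned to 0.0745 with groups removed and 10 matched cells, Cxcl9 to 0.0375 and Igha to 0.0284 in the mean log2 level of the same cells, and Igha to 0.0460 within hashtag and 0.0468 with groups removed. The cause was not tested. The share of cells with Tslp was 0.302% after thinning, 0.404% without cells holding fibroblast gene UMIs and 0.127% at 2 UMIs, and the distal minus proximal difference turned to 0.179 points in cells of at least 5000 UMIs and 1500 genes and to 0.0170 at 2 UMIs. The tdTomato difference was 0 CPM without cells holding fibroblast gene UMIs, where 3 cells with Tslp were left. Between distal and proximal cells with Tslp the count of 0 became 28 without a filter and 7 to 204 with 1 library left out, the 204 without distal replicate 2, where the lone distal library of 6 cells is assumed to vary like the others. With the replicate block the count was 0 as well, with 113 at an unadjusted p under 0.05. The replicate numbers are not said to pair the libraries, and deviations of same-numbered libraries correlated at r = 0.02 in cells with Tslp and 0.355 in those without (across 5724 genes, which are not independent). The 1 gene between small and large bowel became 0 genes by limma-voom, 0 to 1 with 1 library left out, and 108 genes against all cells without Tslp. The 65 genes of cells with tdTomato and no Tslp became 12 without the groups, and then 1 to 22 with 1 library left out, the 1 without the cecum. Small and large bowel were not compared within cells with Tslp and none of the alternatives of that comparison was run.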
